A study of Mus musculus with 12 samples.

Results

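Intraepithelial lymphocytes were represented by 9 transcripts of the count table: *Gzma*, *Gzmb*, *Cd7*, *Cd3e*, *Cd3g*, *Cd8a*, *Itgae*, *Ccl5* and *Ptprc*. They were found by gene symbol among 34245 genes, and all 9 had counts. They were chosen by results of these data, because *Gzma* and *Cd7* had been seen to be lower in aged stem cell libraries, so their values by age in stem cells are a description without a test. The libraries came from male C57BL/6 mice that all carried the Lgr5-EGFP-IRES-creERT2 knock-in, which puts EGFP under the *Lgr5* promoter. Young mice were about 8 months old and aged mice about 27 months old. Intestinal stem cells (ISC) were the GFP-high DAPI-negative cells of crypt suspensions, sorted without antibody staining and therefore without a gate on CD45. Adult enterocytes (AE) were the Epcam-high villus cells negative for CD45, CD31 and DAPI. Each of the 4 groups held 3 libraries.

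Intraepithelial lymphocytes are T cells that sit between the epithelial cells of the gut, mostly above the basement membrane of the villus. Many carry CD8 alpha homodimers and the integrin CD103, which binds E-cadherin on epithelial cells, and many hold granzymes ready for release. CD45, the product of *Ptprc*, is the surface phosphatase of all nucleated blood cells and the protein against which AE were gated.

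Library totals lay between 11893817 and 26796461 counts, except for 110794420 in a single young AE library (Y3). Libraries are named by the code in their column, Y1, Y2 and Y3 for young and O1, O3 and O5 for aged, and each code occurs once in ISC and once in AE. Levels are given as CPM, a count relative to the size of its library, after scaling by edgeR's TMM factors. The detection limit was set at 3 counts per library, which is 0.0359 to 0.327 CPM depending on the library and covers counting error only. The stem cell marker *Lgr5* lay between 79.7 and 146 CPM in ISC and between 0.55 and 4.72 CPM in AE. The enterocyte marker *Vil1* lay between 416 and 752 CPM in ISC and between 4259 and 6163 CPM in AE. The labels of both sorted populations thus matched their defining markers, whereas the members were scarce everywhere, with 3.51 to 63.9 CPM for all 9 together. Fewer lymphocytes and less RNA per lymphocyte cannot be told apart in such bulk libraries.

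The promoters of both granzyme genes are shown because these genes were among the most abundant members per length of transcript in young ISC. Each sequence spans the RefSeq start, mostly upstream of it, on the minus strand of GRCm38.p6, and capitals mark matches to the core Runx motif TGTGGT on either strand.
Gzma promoter, chr13:113100932-113101231: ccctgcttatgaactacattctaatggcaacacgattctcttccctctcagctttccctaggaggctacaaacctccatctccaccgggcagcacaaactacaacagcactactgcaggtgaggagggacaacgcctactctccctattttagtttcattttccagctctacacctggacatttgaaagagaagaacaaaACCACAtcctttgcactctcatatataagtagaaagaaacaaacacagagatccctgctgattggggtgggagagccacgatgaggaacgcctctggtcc
Gzmb promoter, chr14:56262285-56262584: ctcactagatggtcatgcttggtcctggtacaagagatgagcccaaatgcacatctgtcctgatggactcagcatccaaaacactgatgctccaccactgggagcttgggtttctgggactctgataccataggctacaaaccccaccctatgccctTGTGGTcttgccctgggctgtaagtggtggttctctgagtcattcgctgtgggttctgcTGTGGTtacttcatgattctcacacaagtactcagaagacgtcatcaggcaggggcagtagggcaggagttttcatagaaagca
Runx factors are transcription factors of T cells. *Gzma* held 1 match and *Gzmb* held 2, while the promoters of *Cd3e*, *Cd3g*, *Cd8a* and *Ptprc* in the same table held 0. Of 32851 mouse promoters of this length, 16.8% held a match. Motifs of Ets factors and AP-1 and the E-box were also searched. Ets had 1 match in *Cd3e* and *Ptprc* and 0 in both granzyme genes (20.9% of all promoters). AP-1 had 1 match in *Gzmb* (7.81%), and the E-box matched every member promoter (72.3%). A match is only a stretch of letters, and no binding was measured.

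Among the cytotoxic effectors, *Gzma* encodes granzyme A, a serine protease of killer cell granules (chr13:113093825-113100981, minus strand). Its level in young ISC was 6.82, 3.63 and 2.75 CPM in Y1, Y2 and Y3, and in aged ISC it was 0.449, 0.54 and 0.222 CPM in O1, O3 and O5. All aged libraries lay below all young ones. The log2 fold change of aged against young ISC was -3.41 with an SE of 0.49. In AE the level was 17.6, 5.63 and 4.52 CPM in the young libraries and 22.0, 8.96 and 4.91 CPM in the aged ones, so that the ages overlapped. *Gzmb* encodes granzyme B, which enters target cells through perforin pores (chr14:56258838-56262260, minus strand). It was at 4.14, 0.568 and 1.46 CPM in young ISC and at 0.309, 0 and 0 CPM in aged ISC, where O3 and O5 held no count. In AE it was at 6.22, 2.56 and 3.21 CPM in young and 6.66, 2.60 and 0.327 CPM in aged libraries. The aged AE library O5 was the lowest of the 6 AE libraries, with 3 counts.

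Among the T cell receptor complex and its coreceptor, *Cd3e* and *Cd3g* encode the epsilon and gamma chains of CD3, which pass on the signal of the receptor. *Cd3e* (chr9:44998740-45009627) had 10, 6 and 3 counts in the young ISC libraries, whereas the aged ones held 3, 0 and 0. *Cd3g* (chr9:44969572-44980431) likewise had 10, 6 and 3 counts in the young ones, but 7, 0 and 0 in O1, O3 and O5. Every aged ISC library was therefore at or under the detection limit for *Cd3e*, and the young library Y3 was at the limit for *Cd3e* and *Cd3g*. For *Cd3e*, Y3 and O1 both held 3 counts, so their CPM (0.168 against 0.0842) differed only by the scaled size of the libraries. For *Cd3g*, O1 lay above Y3, in CPM as well (0.196 against 0.168). Over the summed libraries the young to aged ratio of *Cd3e* was 9.50, with an exact 95% interval of 2.80 to 50.1 that covers counting error only. *Cd8a* (chr6:71373427-71379173) encodes the alpha chain of CD8. Its counts were 35, 10 and 12 in Y1, Y2 and Y3 of ISC, whereas O1, O3 and O5 held 2, 1 and 0, a ratio of 28.5 with an interval of 9.27 to 142. In AE *Cd8a* stood at 4.58, 2.07 and 1.17 CPM in young and 4.47, 2.69 and 1.31 CPM in aged libraries, with overlap. An annotated antisense gene, *Gm48719*, shares 135 exonic bases with *Cd3e*, and whether strand was used in counting is not stated.

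*Cd7* encodes a small immunoglobulin-type receptor of T and natural killer cells (chr11:121036747-121039418). It was at 2.93, 0.795 and 1.12 CPM in young ISC and at 0.14, 0.162 and 0 CPM in aged ISC. No library of one age reached the range of the other. The log2 fold change was -3.85 with an SE of 0.79. The antisense gene *Gm11775* shares 122 exonic bases with *Cd7*. *Ccl5* encodes a chemokine that draws T cells (chr11:83525778-83530518). It was at 3.95, 1.82 and 0.674 CPM in young ISC and at 0.0561, 0.27 and 0.444 CPM in aged ISC, again without overlap.

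Both remaining members departed from this pattern. *Itgae* encodes the alpha chain of CD103 (chr11:73090583-73147446). It was at 1.66, 1.76 and 0.618 CPM in young ISC and at 1.37, 2.16 and 2.27 CPM in aged ISC, where the ages overlapped and the log2 fold change was 0.50 with an SE of 0.43. *Haspin*, a kinase gene of dividing cells, lies inside *Itgae* on the other strand and shares 0 exonic bases with it. *Haspin* was at 12.4 to 19.9 CPM in ISC and at 2.48 to 7.28 CPM in AE, and its part in the *Itgae* counts was not tested. *Ptprc* (chr1:138062861-138175708) was at 2.61, 1.08 and 3.26 CPM in young ISC and at 1.09, 1.94 and 0.577 CPM in aged ISC, with overlap and a log2 fold change of -0.98 with an SE of 0.51.

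**Figure D1:**
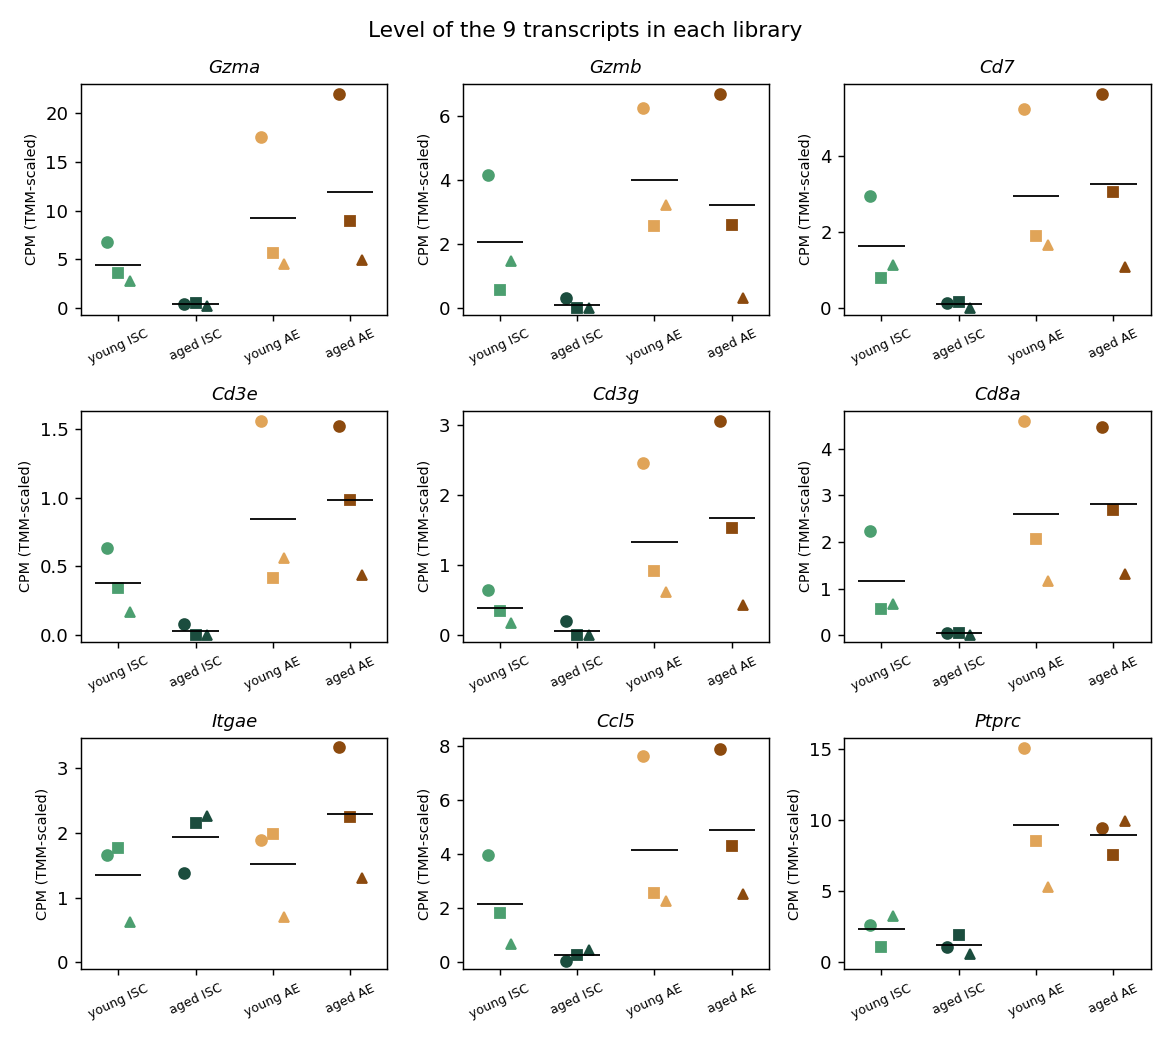
Level of each of the 9 transcripts in CPM (TMM-scaled, vertical axis) in the 3 libraries of each group (horizontal axis), where circles are Y1 or O1, squares Y2 or O3, triangles Y3 or O5, and lines are group means. Aged ISC lie near 0 for 7 genes but not for *Itgae* and *Ptprc*, and the circle is the highest AE library of its age for most genes.

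Over the 9 members, the log2 fold change of aged against young ISC was below 0 for 8, with a median of -3.18 and a range of -4.65 to 0.50. All 3 aged libraries lay below all 3 young ones in CPM for 6 members, against 4.44% of the 15552 genes tested. Among these 6 is *Cd3e*, where Y3 and O1 held the same number of counts. The contrast of aged with young ISC chose *Gzma* and *Cd7*, so nothing is read from that number of members. Leaving out single libraries moved *Gzma* between -3.66 and -2.96 and *Cd7* between -4.30 and -3.14, and *Itgae* stayed above 0 at 0.14 to 0.77. Without O1, *Gzmb*, *Cd3e* and *Cd3g* had no count in aged ISC, and their fitted values of -8.21, -5.80 and -5.80, in place of -3.78, -3.08 and -1.98, are no bound. Over all genes tested in ISC the median log2 fold change was 0.01, and edgeR's quasi-likelihood test called 0% of genes at an FDR of 0.05. At an unadjusted p under 0.05 it had 784 genes, while DESeq2 called 59 genes at an adjusted p of 0.05.

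In AE, where the choice of members used no library, none of the 9 transcripts differed between ages by edgeR's quasi-likelihood test. Of 16265 genes tested, 0% were called, 779 had an unadjusted p under 0.05, and DESeq2 called 17 genes, of which 0 were members. The members' log2 fold changes of aged against young AE ran from -0.24 for *Gzmb* (SE 0.72) to 0.86 for *Itgae* (SE 0.56), with a median of 0.36 beside -0.04 over all genes. Adjusted p-values from edgeR lay between 0.844 and 0.987. No member had groups that did not overlap. An SE is not the limit of what the libraries allow. With SEs of 0.37 to 0.73, changes larger than 1 SE in either direction were left possible, so equal levels were not shown. Without O1 the sign turned in 6 of 9 members, where the values of *Gzma*, *Cd7*, *Cd3e*, *Cd3g*, *Cd8a* and *Ccl5* were -0.33, -0.34, -0.01, -0.13, -0.18 and -0.17, and the removal of other libraries turned *Gzmb* and *Ptprc* too.

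**Figure D2:**
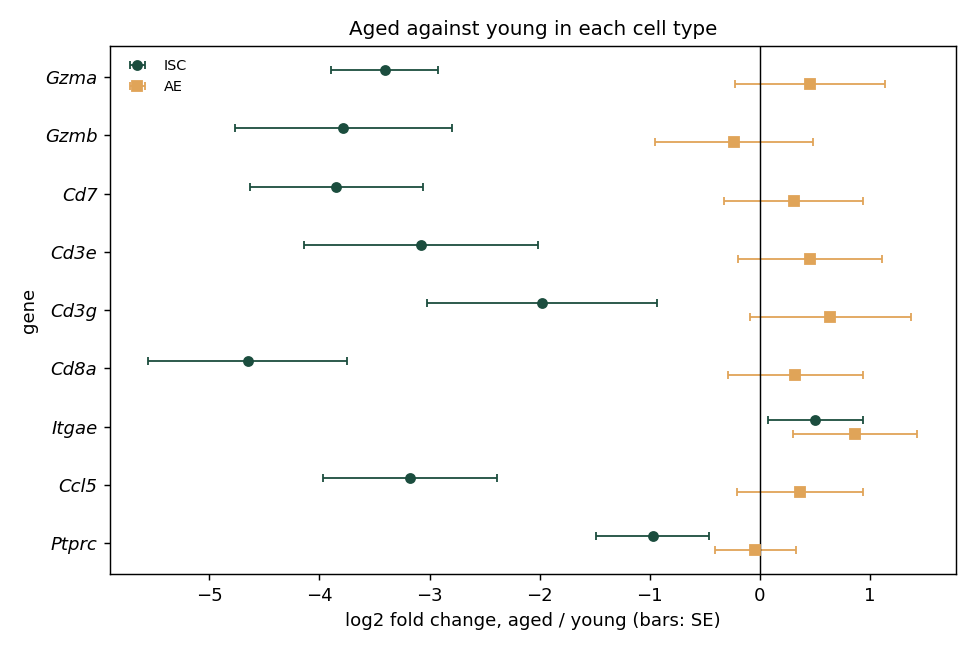
Log2 fold change of aged against young (horizontal axis) of each transcript (vertical axis) in ISC (circles) and AE (squares), with bars for the SE. Values in ISC reach -4.65 and are a description, whereas those in AE lie between -0.24 and 0.86 and none passed the test.

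The comparison of AE with ISC asked where these transcripts lay between a population gated against CD45 and one that was not. The ISC libraries of both ages are those in which the members were chosen, for low levels in aged and higher ones in young ISC. The choice therefore favours a large value of AE against aged ISC and a small one against young ISC, and the members' values by age and their average are given as a description, from which no test is read. In young libraries alone, *Ptprc* was the 1 member of 9 called higher in AE by edgeR, with a log2 fold change of 2.03 (SE 0.51), beside 28.9% of all genes called higher in that fit. The other 8 lay between 0.00 for *Itgae* and 1.61 for *Cd3g* (SE 0.75). In aged libraries alone, 8 of 9 were past the threshold, beside 30.6% of all genes, with *Cd8a* at 5.89 (SE 0.73) and *Itgae* at 0.22 (SE 0.40). The choice of members favours that count, so nothing is read from it. Both fits by age were added after the data were seen, and the difference between them was not tested.

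Averaged over both ages in a fit of all 12 libraries without a block, 8 of 9 members were past the threshold as higher in AE, with a median of 2.74 and a largest value of 3.52 (SE 0.58) for *Cd8a*. Of 17377 genes tested, 35.3% were called higher and 33.7% lower in AE. With the code shared by ISC and AE as a replicate block, the same number of members passed, but the median was 2.31, *Cd8a* was at 2.49 (SE 0.67) and the largest value was 2.85 (SE 0.50) for *Cd3g*. The average leans on the low levels in aged ISC, as the fit of young libraries alone shows. Without the aged ISC library O1, the aged ISC group held no count of *Gzmb*, *Cd3e* or *Cd3g*, and their fitted values of 5.02, 4.19 and 4.87, in place of 2.72, 2.74 and 2.87, depend on the prior count. *Ptprc* was the only member whose 6 AE libraries, at 5.32 to 15.1 CPM, all lay above its 6 ISC libraries, at 0.577 to 3.26 CPM. With library totals alone as the scale, the median over all genes moved from 0.06 to -0.71 and *Itgae* turned from 0.12 to -0.66, whereas the other 8 members stayed past the threshold.

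**Figure D3:**
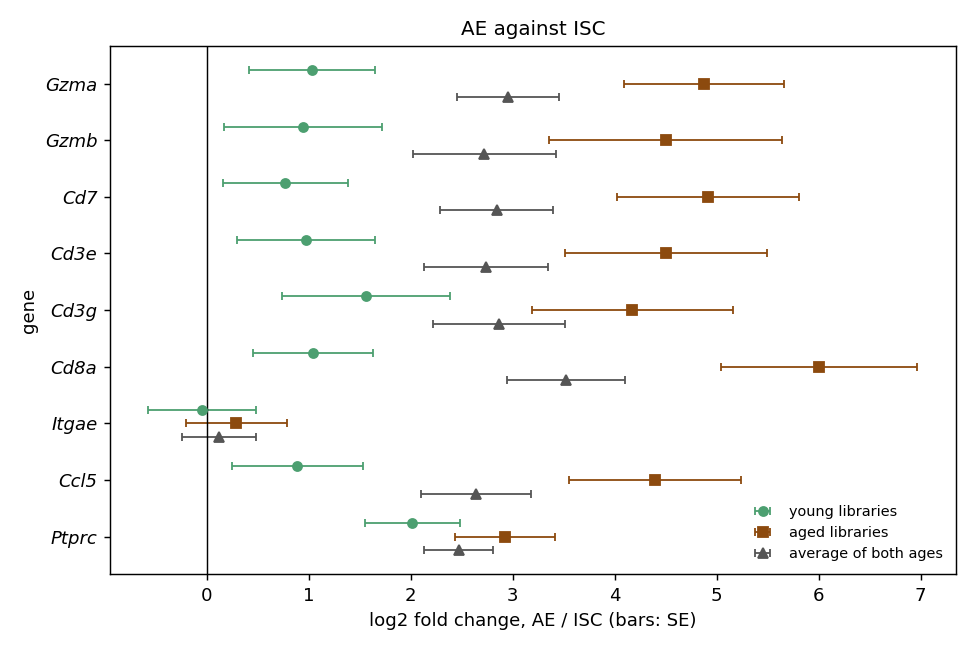
Log2 fold change of AE against ISC (horizontal axis) for each transcript (vertical axis) from the fit of all 12 libraries, in young mice (circles), in aged mice (squares) and averaged (triangles), with bars for the SE. The young values lie nearer 0 than the aged ones for all 9 genes, and *Itgae* lies near 0 throughout.

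Per kilobase of exon, *Gzma* was the most abundant member in all groups except aged ISC, with 4.38 ± 2.13 CPM per kb (SD, n = 3) in young ISC. In AE it was at 9.19 ± 7.21 for the young and 11.9 ± 8.87 for the aged libraries. *Ccl5* followed in AE with 4.33 ± 3.12 in young and 5.11 ± 2.86 in aged libraries. These SDs are spreads between libraries that both genes share, so they do not measure the gap to *Gzma*. In CPM, *Ccl5* lay below *Gzma* in every AE library, at 7.61, 2.56 and 2.28 in young and 7.90, 4.30 and 2.51 in aged ones. In aged ISC *Itgae* stood at 0.422 ± 0.106 and *Gzma* at 0.401 ± 0.163, close means whose gap was not tested. *Itgae* made up 46.8% of the CPM of all 9 members in aged ISC and 4.2% in young AE.

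Over 12 libraries, Pearson's r of log2 CPM between a member and the mean of the other 8 was 0.82 to 0.99 for 8 members and 0.118 for *Itgae*. Over the 6 AE libraries alone, *Itgae* was at 0.705, close to *Gzmb* at 0.714 and above *Ptprc* at 0.504, and over the 6 ISC libraries *Itgae* was at -0.411 and *Ptprc* at 0.591. These are descriptions over libraries that share cell type, age and code. The library Y1 was the highest young library of *Gzma*, *Gzmb*, *Cd7*, *Cd3e*, *Cd3g*, *Cd8a* and *Ccl5* in both ISC and AE. Among other genes with a mean of at least 1 CPM, *Praf2* (r of 0.94), *B630019K06Rik*, *Tmem33*, *Lgals3bp* and *Tnfrsf21* were most like the members' mean over 12 libraries. Over the 6 ISC libraries they were *St14*, *Ube2l3*, *Glul*, *Sh3gl1* and *Ints10*, with r from 0.98 to 0.99 among 12635 genes compared.

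Enterocyte transcripts also tended to be lower in aged ISC. For 5 of 11 markers every aged library lay below every young one, beside 4.44% of all genes, and for the others the ages overlapped. The markers were listed with earlier results of these data known. The 11 enterocyte markers all had log2 fold changes below 0, with a median of -0.95 and a range of -1.97 to -0.26. The 3 most abundant were *Apoa1*, an apolipoprotein of chylomicrons, at -1.49 (SE 0.66), *Apoa4* at -1.97 (SE 0.82) and *Fabp2* at -1.03 (SE 0.76). *Sis*, less abundant than these, was at -0.26 (SE 0.69), the value closest to 0. For the sums, *Itgae* and *Ptprc* were set aside after their values had been seen. The other 7 members summed to 21.3, 8.06 and 7.02 CPM in Y1, Y2 and Y3 and to 1.29, 1.03 and 0.666 CPM in O1, O3 and O5. The 11 enterocyte markers summed to 3761, 3416 and 9120 CPM in young and to 1566, 4890 and 2261 CPM in aged ISC. The libraries were thus ordered differently by these sums, with Y1 highest for lymphocyte and Y3 for enterocyte transcripts, and O3 above Y1 and Y2 only for the latter. The mean of young ISC was 48.4% of that of young AE for the 7 members and 7.28% for the enterocyte markers. In aged mice it was 3.46% and 3.08%. Over all 9 members it was 43.6% in young and 10.3% in aged mice. The part of admixed villus cells in the lymphocyte transcripts was not tested.

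**Figure D4:**
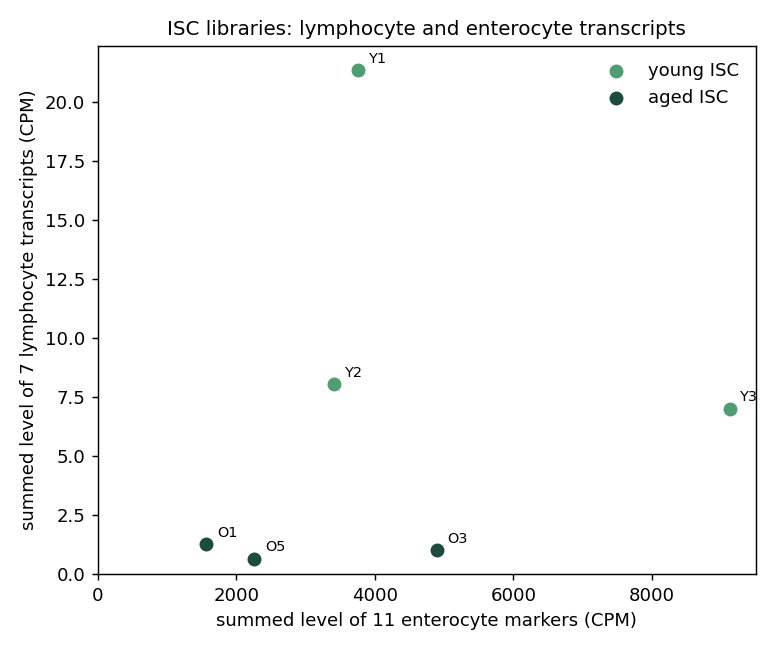
Summed CPM of 7 lymphocyte transcripts (vertical axis) against summed CPM of 11 enterocyte markers (horizontal axis) in the 6 ISC libraries, labelled by code. On the vertical axis the aged libraries lie at 0.666 to 1.29 CPM and the young ones at 7.02 to 21.3 CPM. On the horizontal axis they lie at 1566 to 4890 and at 3416 to 9120 CPM. *Itgae* and *Ptprc* were set aside after their values had been seen, and no relation of the sums was tested.

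Other genes of lymphocytes were looked up in lists, of which 0 genes were called by age in AE. Their counts of genes higher in AE stand beside the 35.3% of all genes called higher. The filter of 10 counts over 12 libraries, the same for all genes, could be met by AE libraries alone, chiefly the large Y3. It therefore favours scarce genes that are higher in AE. With so few genes tested per list as well, nothing particular to a list is read from its count. Of 16 T cell receptor chains and coreceptors, 10 passed the filter on counts in AE and 0 were called by age. Averaged over both ages, 6 of 11 tested were higher and 1 was lower in AE. *Trac*, the constant region of the receptor's alpha chain, had 12, 0 and 5 counts in Y1, Y2 and Y3 of ISC, with 0 for every aged library. *Trdc*, that of the delta chain, had 7, 2 and 0 counts in those young libraries, while the aged ones held 1, 1 and 0. *Trdc* was named after its values were seen. *Cd247*, the zeta chain of CD3, went the other way. Its mean was 0.897 CPM in young and 1.39 CPM in aged ISC, where every aged library lay above every young one, with a log2 fold change of 0.63 (SE 0.37). At 0.251 CPM in young AE, it was lower in AE, with a log2 fold change of -2.61 over both ages. *Tcrg-C2*, a constant region of the gamma chain, had 13, 1 and 0 counts in Y1, Y2 and Y3 of ISC, so that its young level came almost wholly from Y1, and it had 0 in the aged ISC libraries.

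Of 14 genes of T cell receptor signalling, 6 of 11 tested were higher and 1 lower in AE. *Vav1*, a signalling gene of blood cells, was at 18.9 CPM in young ISC, far above the members, and the kinase *Lck* was at 2.07 CPM there, against 1.09 CPM in aged ISC. *Ptpn22*, a phosphatase that dampens the receptor, was higher in AE by 3.42 (SE 0.38). Of 10 cytotoxic effectors, 4 of 5 tested were higher in AE. *Nkg7*, a granule membrane protein, had 11, 7 and 3 counts in the young ISC libraries, with none in any aged one, and *Srgn*, the granule proteoglycan, was at 0.219 and 0.00935 CPM. *Gzmm*, encoding granzyme M, was at 0.629 and 0.566 CPM, beside a log2 fold change of -0.08 (SE 0.49). Of 16 natural killer type receptors, 6 of 8 tested were higher in AE, among them *Il2rb* and *Fcer1g* but not *Lag3*.

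Of 17 genes of homing and adhesion, 7 of 13 tested were higher and 1 lower in AE. *Itgb7*, whose product pairs with CD103, was at 0.233 and 0.0857 CPM in young and aged ISC and at 3.28 and 1.55 CPM in young and aged AE, and *Itga4* was similar. *Jaml*, an adhesion protein, was at 147 and 166 CPM in ISC and at 12.1 and 8.68 CPM in AE. Of 15 pan-leukocyte genes, 9 of 15 were higher in AE, and *Cytip* and *Rac2* stood at 33.7 and 33.0 CPM in young AE while *Laptm5* stood at 0.977 CPM. Of 7 T cell transcription factors, *Bcl11b* and *Tcf7* were lower in AE and *Ets1* was higher. Several genes named for lymphocytes were thus far more abundant than the 9 members and had log2 fold changes near 0 by age in ISC, 0.04 for *Bcl11b* and -0.11 for *Tcf7*. By list, values there were below 0 for 6 of 7 T cell receptor genes (median -3.26) and 4 of 5 signalling genes (-0.92). They were below 0 for 4 of 4 cytotoxic effectors (-4.45), 7 of 7 natural killer type receptors (-2.28) and 6 of 8 homing genes (-1.37). For pan-leukocyte genes it was 6 of 9 (-1.16) and for transcription factors 1 of 3 (0.04), beside 47.8% of all genes. The filter on counts in ISC could be met by the libraries of a single age. *Trac*, *Nkg7*, *Ctsw*, *Cd160*, *Itgb2* and *Ikzf3*, among others, met it by young libraries alone, with no count in any aged ISC library. Their values are negative for that reason, and their size depends on the prior count. Nothing is therefore read from these counts of signs or from the medians.

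Of 16 epithelial genes that lymphocytes contact, 13 were higher and 1 lower in AE, and *Cdh1*, the E-cadherin gene, was at 821 and 790 CPM in young and aged ISC. *Epcam* and *Ccl25*, the chemokine of gut-homing T cells, were higher in AE by 0.90 and 1.36. AE were sorted as Epcam-high and ISC without a gate on Epcam, so the sort itself favours that value of *Epcam*. B and plasma cell markers (*Cd79b*, *Jchain* and *Cd79a* leading) summed to 0.842 to 2.33 CPM in young and 0.622 to 1.08 CPM in aged ISC. Myeloid markers (*Itgam*, *Cd14* and *Cd68* leading) summed to 14.7 to 27.4 CPM in young and 20.7 to 37.9 CPM in aged ISC, with overlap. These sums came almost wholly from *Itgam*, *Cd14* and *Cd68*. Of the 17 myeloid genes, 11 had no count in any young ISC library and 8 had none in any aged one. Mast cell markers (*Tpsb2*, *Mcpt1* and *Mcpt2* leading) were at 0 in all ISC libraries. Stromal and endothelial markers (*Pecam1*, *Dcn* and *Col3a1* leading) summed to 0.17 to 1.63 CPM in young and 0.324 to 1.01 CPM in aged ISC. Stem cell markers (*Olfm4*, *Smoc2* and *Axin2* leading) summed to 4594 to 6308 CPM in young and 4474 to 6547 CPM in aged ISC, with overlap.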

How the data were processed

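The authors trimmed single-end reads with Trim Galore 0.4.4, mapped them to GRCm38 with HISAT2 2.1.0 (versions per the labels), and counted uniquely mapped reads over merged exons in SeqMonk. The deposited counts are raw and cover 34245 genes. The authors also deposited log2 values of 49 genes, scaled to the 75th percentile, which hold 2 members (*Gzma* and *Cd7*) and were not tested, and false discovery rates of their own DESeq2 test, which were not used. In 8 of 12 sample titles the code conflicts with the rest of the title, so each column was assigned by its own name.

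Members and lists were chosen with earlier results of these data known. Named genes were the 9 members, the 3 most abundant genes of each list, any list gene called by age in AE, and the 5 genes most like the members over 12 and over 6 libraries. *Trdc*, *Lgr5*, *Vil1*, *Sis* and *Haspin* were named outside this rule. Genes that summed to 10 or more counts across the compared libraries were scaled by TMM and fitted with edgeR 4.0.16 (R 4.3.3), with Benjamini-Hochberg adjustment and a threshold of 0.05. The quasi-likelihood test was run under 4 combinations of its robust and legacy options, and the robust fit with legacy off was taken as the main one after the counts of all 4 had been seen, because it matches the earlier processing of these data. The design written beforehand named no setting. In ISC by age the 4 gave 784, 678, 796 and 695 genes at an unadjusted p under 0.05 and in AE 779, 794, 778 and 809. Alternatives were DESeq2 1.42.0, limma-voom (limma 3.58.1), other scalings, filters and library sets. The methods describe 3 mice per cohort, but no source ties a library to a mouse, so p-values measure the spread between these libraries.

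Deviations from the group means correlated between ISC and AE of one code (6 pairs, r of 0.213 to 0.431, each over 0.1) and less between codes (12 pairs, -0.376 to 0.11), so AE and ISC were also compared with the code as replicate block, while the main fit had none. The members' values of AE against ISC were planned as a test and are given as a description, since the ISC libraries chose the members. Libraries of a group differed by more than sampling noise (chi-square per degree of freedom of 29.0 to 240 over 12 pairs). Coordinates are those of GENCODE vM21 and equal those of the table. Promoters are from RefSeq (GRCm38.p6), where 6 of 9 members matched.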

Additional observations from a re-analysis of the deposited data

How the results depend on the processing

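With 3 libraries a group and members at few counts, the SEs in AE left room for changes of moderate size or larger. The number of genes called by age was 17 in AE and 59 in ISC with DESeq2, 2 and 3 in the fit on all 12 libraries, and 1 in ISC without a filter. Leaving out single libraries gave 0 to 1 genes in AE and 0 to 1 in ISC. The robust and legacy options of the quasi-likelihood test, run in 4 combinations before one was taken as main, gave 0 genes called by age in both cell types under each, and 8 members called in AE against ISC under each. Of AE against ISC, the number of members called was 1 in the young libraries alone (28.9% of all genes were higher in AE) and 8 in the aged ones alone (30.6%; both added after the data were seen). With the code as replicate block, 12175 genes and 8 members were past the threshold, while the members' median fell from 2.74 to 2.31. Leaving out single libraries gave 11392 to 11879 genes and 8 members in each case. All these counts of members are a description, because the ISC libraries chose the members.

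Signs turned for values that had not passed the test. By age in AE, *Ptprc* was at 0.31 with limma-voom. Leaving out Y1 gave 0.15 for *Gzmb* and 0.42 for *Ptprc*, leaving out Y3 gave -0.09, -0.19 and -0.02 for *Cd7*, *Cd8a* and *Ccl5*, leaving out O1 gave -0.33, -0.34, -0.00554, -0.13, -0.18 and -0.17 for *Gzma*, *Cd7*, *Cd3e*, *Cd3g*, *Cd8a* and *Ccl5*, leaving out O3 gave 0.06 for *Ptprc* and leaving out O5 gave 0.27 for *Gzmb*. The extremes of these fits by age were -0.33 to 1.28 for *Gzma*, -1.32 to 0.27 for *Gzmb*, -0.34 to 0.93 for *Cd7*, -0.01 to 0.93 for *Cd3e*, -0.13 to 1.30 for *Cd3g*, -0.19 to 0.98 for *Cd8a*, -0.17 to 1.06 for *Ccl5* and -0.37 to 0.42 for *Ptprc*. For AE against ISC, *Itgae* was at -0.66 with library totals alone, and leaving out single libraries gave -0.10 to 0.35. The cause of these shifts was not tested.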
